A study of Mus musculus with 16 samples.

Results

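Steroid hormones are switched on and off by dehydrogenases and reductases, and the transcripts of 10 such enzymes were followed in mouse primary hepatocytes: Hsd3b1, Hsd3b2, Hsd3b3, Hsd3b5, Hsd3b7, Hsd11b1, Hsd17b2, Akr1c6, Akr1c14 and Srd5a1. They were chosen by symbol from the 55416 mouse gene IDs of the expression table, with earlier results of these data known, so their own differences are given as a description without p-values. Gene expression was measured by stranded total RNA sequencing in 16 samples. The HKO cells carried Cre recombinase driven by the albumin promoter, which is active in hepatocytes, so that the floxed Smpd3 gene is deleted there, and the FLOX cells were labelled Alb-cre-, without Cre. Cells of each genotype were held for 24 h with vehicle or with 0.4 mM palmitic acid (a saturated fatty acid), an in vitro model of steatohepatitis. The 4 groups were HKO with palmitic acid, HKO with vehicle, FLOX with palmitic acid and FLOX with vehicle, with 4 samples each. The labels used here state neither the age nor the sex of the mice, nor whether separate mice or cultures gave the replicates.

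Liver cells take up circulating steroids and change single oxygen groups or double bonds on the steroid rings, which activates the hormone, inactivates it or prepares it for conjugation and excretion. Hydroxysteroid dehydrogenases of the short-chain family (the Hsd genes) and of the aldo-keto reductase family (the Akr1c genes) convert hydroxyl groups and ketones into each other at a given ring position, and 5α-reductases remove a double bond of the A ring. Bile acid synthesis from cholesterol uses enzymes of the same kind. In the mouse, several of these genes lie side by side as families, with the 3β-hydroxysteroid dehydrogenases Hsd3b1, Hsd3b2, Hsd3b3 and Hsd3b5 on chromosome 3 and the Akr1c genes on chromosome 13. Hsd3b7 lies on chromosome 7, Hsd11b1 on chromosome 1, Hsd17b2 on chromosome 8 and Srd5a1 on chromosome 13.

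Promoter sequences are shown for members of the same chromosomal cluster that behaved differently. Hsd3b1, which separated the genotypes, is shown with Hsd3b3 and Hsd3b5, which did not. Akr1c14, which differed most between treatments, is shown with Akr1c6, which separated the genotypes. Akr1c14 was also lower in HKO than in FLOX cells, a difference called only with palmitic acid. Each promoter sequence runs from 250 bases before the start site to 50 bases from it on. It is read 5′ to 3′ along the gene and comes from RefSeq on GRCm38.p6. The Hsd3b1 sequence is chr3:98859745-98860044, that of Hsd3b3 chr3:98763079-98763378 and that of Hsd3b5 chr3:98645485-98645784, all on the minus strand. The Akr1c14 sequence is chr13:4059341-4059640 and that of Akr1c6 chr13:4434093-4434392, both on the plus strand. Capitals mark a match to TTCNNNGAA, the palindrome bound by STAT factors.
Hsd3b1: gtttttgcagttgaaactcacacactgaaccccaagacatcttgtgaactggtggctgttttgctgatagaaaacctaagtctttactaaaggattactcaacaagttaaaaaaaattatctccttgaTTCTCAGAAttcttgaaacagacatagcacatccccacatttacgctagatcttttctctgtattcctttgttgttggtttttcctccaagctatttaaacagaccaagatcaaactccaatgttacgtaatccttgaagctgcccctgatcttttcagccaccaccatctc
Hsd3b3: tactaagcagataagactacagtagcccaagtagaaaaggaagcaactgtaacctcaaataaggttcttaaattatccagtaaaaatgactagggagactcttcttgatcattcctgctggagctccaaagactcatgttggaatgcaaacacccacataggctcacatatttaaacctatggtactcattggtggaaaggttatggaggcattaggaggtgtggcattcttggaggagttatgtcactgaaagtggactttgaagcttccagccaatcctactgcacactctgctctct
Hsd3b5: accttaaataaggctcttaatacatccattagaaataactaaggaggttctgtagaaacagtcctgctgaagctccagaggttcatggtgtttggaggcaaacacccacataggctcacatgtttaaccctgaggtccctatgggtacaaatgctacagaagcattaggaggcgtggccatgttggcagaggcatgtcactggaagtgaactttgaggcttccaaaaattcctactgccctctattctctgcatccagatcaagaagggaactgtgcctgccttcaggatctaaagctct
Akr1c14: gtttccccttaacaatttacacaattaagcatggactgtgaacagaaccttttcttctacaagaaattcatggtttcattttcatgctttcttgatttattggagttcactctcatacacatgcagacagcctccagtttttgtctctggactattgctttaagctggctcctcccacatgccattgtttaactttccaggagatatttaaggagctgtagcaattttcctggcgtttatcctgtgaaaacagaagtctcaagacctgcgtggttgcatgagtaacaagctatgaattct
Akr1c6: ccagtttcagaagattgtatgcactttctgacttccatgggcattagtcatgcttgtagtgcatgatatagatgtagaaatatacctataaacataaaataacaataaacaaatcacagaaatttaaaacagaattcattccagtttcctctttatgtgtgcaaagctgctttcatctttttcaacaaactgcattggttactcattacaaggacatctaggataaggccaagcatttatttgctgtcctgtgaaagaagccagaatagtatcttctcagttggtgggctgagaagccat

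In global alignments the Hsd3b1 promoter was identical to that of Hsd3b3 at 52.9% of aligned columns and to that of Hsd3b5 at 50%. The Hsd3b3 and Hsd3b5 promoters shared 55.5% of columns, and those of Akr1c14 and Akr1c6 shared 50.8%. These alignments held gaps, with 350 to 360 columns for sequences of 300 bases. Promoters of unrelated genes were not aligned, so these shares have no baseline and no likeness is read from them. The table held 10 promoters for 9 members, and Hsd3b3 had a pair of start sites whose promoters were 98.7% identical. TTCNNNGAA, searched on both strands, occurred in 2 of the 10 promoters and in 8.30% of the 32851 promoters of the table. In Hsd3b1 the match was TTCTCAGAA, starting 122 bases before the start site, and in Hsd3b7 it was TTCCTGGAA, starting 21 bases before it. The glucocorticoid response element (AGAACA and TGTTCT with 3 bases between them) and the nuclear receptor direct repeat (AGGTCA repeated after 1 base), also searched on both strands, occurred in 0 of the 10, against 0.00913% and 0.0396% of all promoters, so no matches overlapped. A match describes letters only, and its absence says nothing on the binding of any factor.

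Values are TPM, a share of the transcripts of a sample after division by gene length, so that levels can be compared between genes. The sequencing depth cannot be recovered from TPM and is unknown here, and precision is given by the spread of 4 samples (mean ± SD, n = 4 throughout). Differences are of log2(TPM + 1) with their SE from 1 limma fit of all 16 samples. The added 1 makes them smaller than the ratio of means for genes of few TPM. A difference was called when its limma p, adjusted by Benjamini-Hochberg over the 11858 genes with at least 1 TPM in at least 4 samples, was below 0.05. Of the 10 enzymes 9 were tested. Hsd3b2 failed the filter, and Hsd3b1 passed it only through the FLOX samples in which it was high, so that it had to differ. Rose and fell are used below for called differences alone.

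Smpd3, the targeted sphingomyelinase gene, stood at 7.82 ± 1.11 TPM in HKO and 46.0 ± 2.36 TPM in FLOX cells with palmitic acid, and at 5.29 ± 0.715 and 32.0 ± 4.09 TPM in HKO and FLOX cells with vehicle. Its log2 differences, HKO minus FLOX, were -2.42 ± 0.11 and -2.39 ± 0.11 (limma adjusted p = 1.09e-09 and 7.87e-10). The samples held 11231 to 11498 genes at 1 TPM or more. The FLOX libraries numbered 1 of both treatments stood at opposite ends of the third principal component (7.53% of the variance), with scores of -19.0 with palmitic acid and 16.1 with vehicle, and leaving both out changed no call of a member. All 10 hepatocyte markers were tested and Alb averaged 21406 TPM over the samples. Their summed level ran from 54861 to 55956 TPM in HKO cells with palmitic acid against 69766 to 70775 TPM with vehicle, and from 52636 to 55097 TPM in FLOX cells with palmitic acid against 65749 to 66924 TPM with vehicle. Of the macrophage markers 1 of 6 was tested, Cd68, which made up most of a sum of 80.9 to 107 TPM in HKO against 55.5 to 68.1 TPM in FLOX cells with palmitic acid and of 60.3 to 69.6 against 48.4 to 55.02 TPM with vehicle. The resident macrophage marker Clec4f reached 0.47 TPM at most. The 6 stellate cell markers reached 0.70 TPM and the 5 endothelial markers 2.83 TPM at most. The 5 cholangiocyte markers, of which 4 were tested, summed to 338 to 386 TPM in HKO against 197 to 242 TPM in FLOX cells with palmitic acid, and to 298 to 324 against 180 to 191 TPM with vehicle. Most of that sum was Spp1, and Epcam stayed below 1 TPM. Cyp11a1, which opens steroid synthesis in glands, was listed at 0 in all 16 samples, and the 5 gland markers, of which 2 were tested, summed to 55.4 to 118 TPM, nearly all of it Cyp21a1.

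The 10 transcripts ran from 0.21 to 214 TPM. Hsd11b1 and Hsd17b2 stood above 110 TPM in every sample, Hsd3b7 between 57.4 and 76.5 TPM, and Akr1c14 between 6.59 and 45.7 TPM. Akr1c6, Srd5a1 and Hsd3b3 stood between 4.09 and 12.55 TPM. Hsd3b1 ran from 0.29 to 6.65 TPM, Hsd3b5 from 0.52 to 2.62 TPM and Hsd3b2 from 0.21 to 0.53 TPM. In short, Akr1c14 and, less steeply, Hsd17b2, Srd5a1 and Hsd11b1 were lower with palmitic acid in both genotypes. Hsd3b1 and Akr1c6 were low in HKO cells with either treatment, and Hsd11b1 and Hsd17b2 were high in HKO cells.

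**Figure D1:**
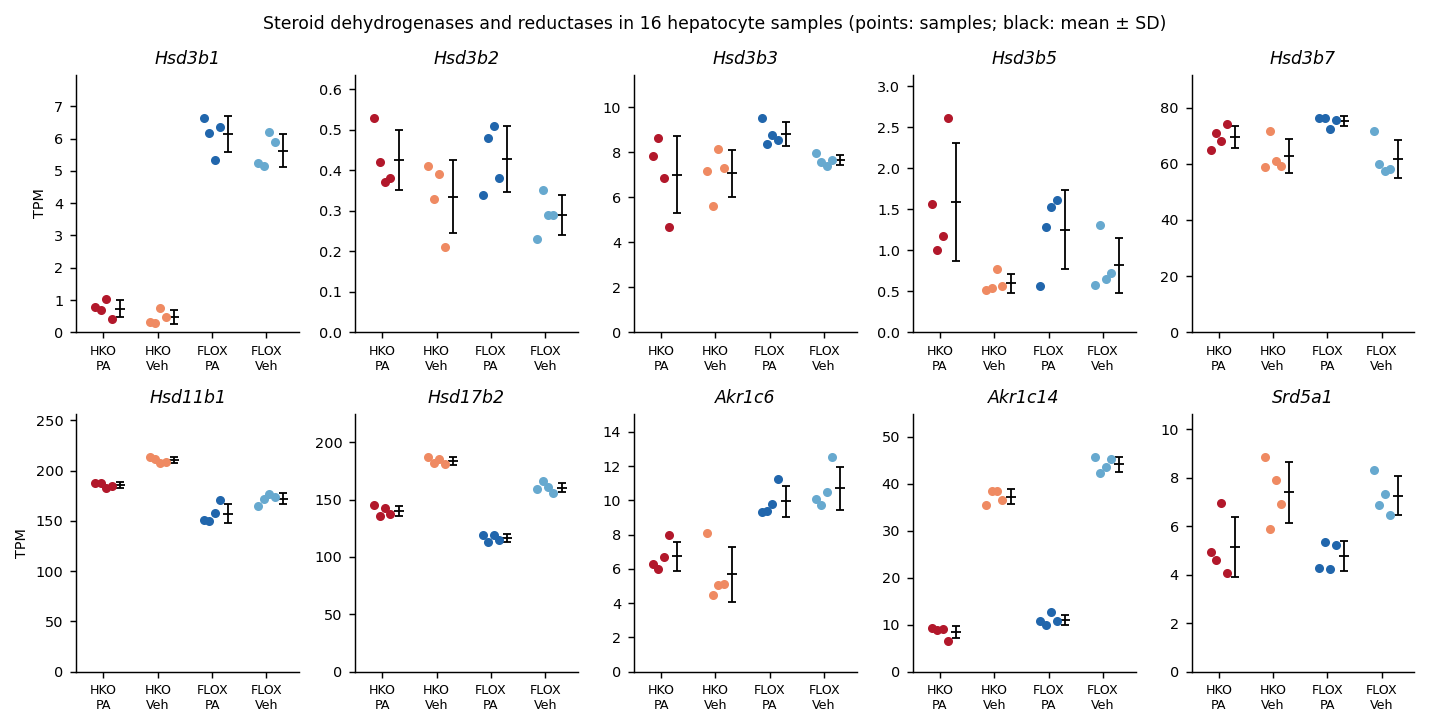
TPM of the 10 enzymes in each of the 16 samples (coloured points), with mean ± SD per group in black. The y axis of each panel starts at 0 and the panels have their own scales. Hsd3b1 stood at 0.29 to 1.04 TPM in the HKO samples and at 5.15 to 6.65 TPM in the FLOX samples, and Akr1c14 at 6.59 to 12.6 TPM with palmitic acid and at 35.4 to 45.7 TPM with vehicle.

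The widest gap between treatments among the members was that of Akr1c14, an aldo-keto reductase with 3α-hydroxysteroid dehydrogenase activity that inactivates 5α-reduced androgens. With palmitic acid the 4 HKO samples read 9.23, 8.92, 8.98 and 6.59 TPM, against 35.4, 38.5, 38.5 and 36.5 TPM with vehicle. The FLOX samples read 10.85, 9.86, 12.6 and 10.7 TPM with palmitic acid, against 45.7, 42.2, 43.5 and 45.2 TPM with vehicle. Every palmitic acid sample lay far below every vehicle sample of its genotype, and the 4 groups did not overlap with one another. The mean with palmitic acid was 8.43 ± 1.23 TPM in HKO cells, or 22.6% of the vehicle mean of 37.2 ± 1.54 TPM, and 11 ± 1.15 TPM in FLOX cells, or 24.9% of 44.2 ± 1.60 TPM. Akr1c14 fell by 2.03 ± 0.087 on the log2 scale in HKO and by 1.92 ± 0.087 in FLOX cells, and the HKO response less the FLOX response was -0.11 ± 0.12. In bulk RNA, fewer cells of a kind and less RNA per cell cannot be told apart. The summed hepatocyte markers, given above, were also lower with palmitic acid in both genotypes, by less than Akr1c14. All 10 were called lower in HKO cells (median log2 difference -0.28) and 8 in FLOX cells (median -0.34), with 0 higher. Over all tested genes 13.1% and 11.5% were called lower. Both medians lay beyond the falls of Hsd11b1 given below and short of those of Srd5a1 and Hsd17b2. The part of these markers in the falls of Akr1c14 and of the members that follow was not tested.

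Srd5a1, the 5α-reductase that acts just before Akr1c14 in the breakdown of testosterone, moved the same way but less. Its level was 4.93, 4.63, 6.95 and 4.09 TPM in HKO samples with palmitic acid, against 8.87, 5.91, 7.90 and 6.92 TPM with vehicle. In FLOX samples it was 4.29, 5.36, 4.22 and 5.25 TPM with palmitic acid, against 8.34, 6.89, 7.35 and 6.46 TPM with vehicle. The treatments overlapped in HKO cells through the third palmitic acid sample and did not overlap in FLOX cells. Srd5a1 fell by 0.46 ± 0.14 in HKO and by 0.52 ± 0.14 in FLOX cells on the log2 scale. Means with palmitic acid were 69.6% (HKO) and 65.8% (FLOX) of those with vehicle. The HKO call was lost without HKO vehicle replicate 1, at -0.38. Of the Srd5a1 transcript's stretches of 50 bases, 16.5% were shared with another gene, most often Gm17108, so its reads could have been split.

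Hsd17b2, which oxidises estradiol and testosterone to weaker 17-ketosteroids, was among the abundant members and its replicates lay close together. In HKO samples it stood at 145, 136, 143 and 138 TPM with palmitic acid, against 187, 182, 185 and 181 TPM with vehicle. In FLOX samples it stood at 119, 113, 119 and 114 TPM with palmitic acid, against 159, 166, 161 and 156 TPM with vehicle. None of the 4 groups overlapped, and their order from high to low was HKO vehicle, FLOX vehicle, HKO palmitic acid and FLOX palmitic acid. Palmitic acid lowered it to 76.4% of the vehicle mean in HKO cells and 72.5% in FLOX cells, with log2 differences of -0.39 ± 0.032 and -0.46 ± 0.032. Between genotypes it was 1.21-fold higher in HKO cells with palmitic acid (140.3 ± 4.35 against 116 ± 3.28 TPM, log2 difference 0.27 ± 0.032) and 1.14-fold higher with vehicle (184 ± 3.12 against 160.5 ± 4.13 TPM, 0.19 ± 0.032).

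Hsd11b1, which regenerates active corticosterone from inert 11-dehydrocorticosterone inside hepatocytes, showed the same signs, with smaller differences than Hsd17b2 between treatments. Its samples read 188, 188, 182 and 185 TPM in HKO cells with palmitic acid, and 214, 212, 207 and 209 TPM in HKO cells with vehicle. They read 150.5, 150.2, 158 and 171 TPM in FLOX cells with palmitic acid, and 165, 172, 177 and 174 TPM in FLOX cells with vehicle. The order from high to low was HKO vehicle, HKO palmitic acid, FLOX vehicle and FLOX palmitic acid, and only the last 2 overlapped. It was 1.18-fold higher in HKO than in FLOX cells with palmitic acid (log2 difference 0.24 ± 0.038) and 1.22-fold higher with vehicle (0.29 ± 0.038). Palmitic acid lowered it to 88.3% of vehicle in HKO (-0.18 ± 0.038) and to 91.4% in FLOX cells (-0.13 ± 0.038), and the FLOX call was lost without FLOX palmitic acid replicate 2, at -0.11. With median-ratio scaling these became -0.30 and -0.23. H6pd, which supplies the NADPH that Hsd11b1 uses as a reductase and is named here after its values were seen, had 169.5 ± 10.2 TPM in HKO cells with palmitic acid, 149.7 ± 12.5 TPM with vehicle, 181 ± 11.6 TPM in FLOX cells with palmitic acid and 166 ± 21.9 TPM with vehicle. None of its differences was called (limma adjusted p of 0.0897 to 0.972 over the 5 comparisons).

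The genotypes differed most in Hsd3b1, the 3β-hydroxysteroid dehydrogenase and isomerase best known from mouse adrenals and gonads, where it turns pregnenolone into progesterone. HKO samples read 0.78, 0.70, 1.04 and 0.42 TPM with palmitic acid, and FLOX samples 6.65, 6.17, 5.34 and 6.37 TPM. With vehicle, HKO samples read 0.32, 0.29, 0.77 and 0.48 TPM, and FLOX samples 5.24, 5.15, 6.20 and 5.89 TPM. Every FLOX sample lay above every HKO sample by several TPM. HKO cells had 11.98% of the FLOX mean with palmitic acid (0.735 ± 0.255 against 6.13 ± 0.564 TPM) and 8.27% with vehicle (0.465 ± 0.220 against 5.62 ± 0.508 TPM). On the log2(TPM + 1) scale Hsd3b1 was lower in HKO, with differences of -2.05 ± 0.12 with palmitic acid and -2.18 ± 0.12 with vehicle, which a pseudocount of 0.1 stretched to -2.95 and -3.41. Palmitic acid minus vehicle was 0.24 ± 0.12 in HKO and 0.11 ± 0.12 in FLOX cells, neither called, and quantile normalization turned the FLOX value to -0.0065. Only 4.86% of its stretches of 50 bases were shared with another gene.

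Akr1c6, an aldo-keto reductase with 17β-hydroxysteroid dehydrogenase activity that can form testosterone from androstenedione, was also low in HKO cells, by less. With palmitic acid it stood at 6.31, 5.98, 6.67 and 7.96 TPM in HKO samples and at 9.31, 9.41, 9.79 and 11.26 TPM in FLOX samples. With vehicle it stood at 8.08, 4.49, 5.08 and 5.13 TPM in HKO samples and at 10.06, 9.75, 10.5 and 12.55 TPM in FLOX samples. The genotypes did not overlap with either treatment, although the first HKO vehicle sample stood well above the other 3 of its group. HKO cells had 67.7% of the FLOX mean with palmitic acid and 53.1% with vehicle, with log2 differences of -0.50 ± 0.13 and -0.83 ± 0.13. The call with palmitic acid was lost without HKO palmitic acid replicate 1 (-0.48), 2 (-0.46) or 3 (-0.50), and without FLOX palmitic acid replicate 3 (-0.51) or 4 (-0.45). Palmitic acid minus vehicle was 0.23 ± 0.13 in HKO and -0.096 ± 0.13 in FLOX cells. Without HKO vehicle replicate 1 the HKO value became 0.39 and passed the threshold. The cholangiocyte and macrophage marker sums, given above and mostly Spp1 and Cd68, were higher in HKO cells with either treatment. Of the 4 tested cholangiocyte markers 1 was called higher and 0 lower with palmitic acid, and 2 higher and 1 lower with vehicle. Of the 10 hepatocyte markers 6 were higher in HKO and 2 lower with palmitic acid, and 5 and 2 with vehicle. Over all tested genes 4.24% were higher and 5.50% lower with palmitic acid, and 4.11% and 7.56% with vehicle. The part of these markers in the genotype differences of Hsd3b1, Akr1c6, Hsd11b1 and Hsd17b2 was not tested.

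Akr1c14 itself was lower in HKO than in FLOX cells with palmitic acid (-0.35 ± 0.087), a call lost without FLOX palmitic acid replicate 3 (-0.29). With vehicle its groups did not overlap either, yet the difference of -0.24 ± 0.087 was not called. It passed the threshold when HKO palmitic acid replicate 4, the lowest sample of that group and no part of this comparison, was left out of the shared estimate of spread, and also when only the groups compared were fitted (-0.24 ± 0.046).

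The other 4 members were Hsd3b7, Hsd3b5, Hsd3b3 and Hsd3b2, with called differences in Hsd3b7 and Hsd3b5 alone. Hsd3b7, the dehydrogenase that follows cholesterol 7α-hydroxylation in bile acid synthesis, rose 1.22-fold with palmitic acid in FLOX cells (75.2 ± 1.88 against 61.7 ± 6.76 TPM, log2 difference 0.29 ± 0.072). In HKO cells it had 69.5 ± 3.86 TPM with palmitic acid against 62.8 ± 6.08 TPM with vehicle (0.15 ± 0.072, not called, and 0.21 and called without HKO vehicle replicate 2). With median-ratio scaling the differences of Hsd3b7 became 0.18 in FLOX, still called, and 0.025 in HKO cells. Of its 50-base stretches 70.3% were shared with another gene, most often the overlapping locus Gm49388. That locus had 16.02 ± 1.66 TPM in HKO and 14.8 ± 1.70 TPM in FLOX cells with palmitic acid. How reads were split between Hsd3b7 and Gm49388 is uncertain, and the part of this split in the rise of Hsd3b7 was not tested. Hsd3b5, a 3-ketosteroid reductase of adult male mouse liver, read 1.56, 1.01, 1.17 and 2.62 TPM in HKO cells with palmitic acid against 0.52, 0.54, 0.77 and 0.57 TPM with vehicle. That 2.65-fold rise (0.66 ± 0.20) was between levels near 1 TPM. In FLOX cells Hsd3b5 read 0.56, 1.29, 1.53 and 1.62 TPM with palmitic acid and 0.58, 1.31, 0.65 and 0.73 TPM with vehicle, which overlapped (0.30 ± 0.20, not called). Its response did not differ between genotypes past the threshold (0.36 ± 0.28).

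Hsd3b3, an isoform of liver and kidney, was the most abundant of the 4 members on chromosome 3 in HKO cells and in FLOX cells. It had 7.0 ± 1.70 TPM in HKO cells with palmitic acid, 7.05 ± 1.04 TPM with vehicle, 8.81 ± 0.514 TPM in FLOX cells with palmitic acid and 7.64 ± 0.230 TPM with vehicle. No difference of Hsd3b3 was called, although the FLOX samples with palmitic acid (8.38 to 9.54 TPM) all lay above those with vehicle (7.40 to 7.95 TPM). Hsd3b2, an isoform known from kidney, averaged 0.425 ± 0.073 TPM in HKO cells with palmitic acid, 0.335 ± 0.090 TPM with vehicle, 0.427 ± 0.081 TPM in FLOX cells with palmitic acid and 0.290 ± 0.049 TPM with vehicle, with overlap in every comparison. Hsd3b2 and Hsd3b3 shared 25.1% and 25.0% of their 50-base stretches with each other or other genes, and Hsd3b5 shared 21.2%, mainly with Hsd3b4. Levels were also summed over Hsd3b1, Hsd3b2, Hsd3b3 and Hsd3b5, which reduces the effect of how reads were split among them. The effect is not removed, since TPM divides by gene length and Hsd3b4 is outside the sum. The sum was 9.76 ± 1.25 TPM in HKO and 16.6 ± 0.453 TPM in FLOX cells with palmitic acid (log2 difference -0.72 ± 0.094). With vehicle it was 8.46 ± 1.34 against 14.4 ± 0.259 TPM (-0.71 ± 0.094). Most of both gaps was Hsd3b1, at 0.735 against 6.13 TPM with palmitic acid and 0.465 against 5.62 TPM with vehicle. Neither Hsd3b3 nor Hsd3b5 was called between genotypes. The sum is therefore no separate result for Hsd3b1 or for the family.

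**Figure D2:**
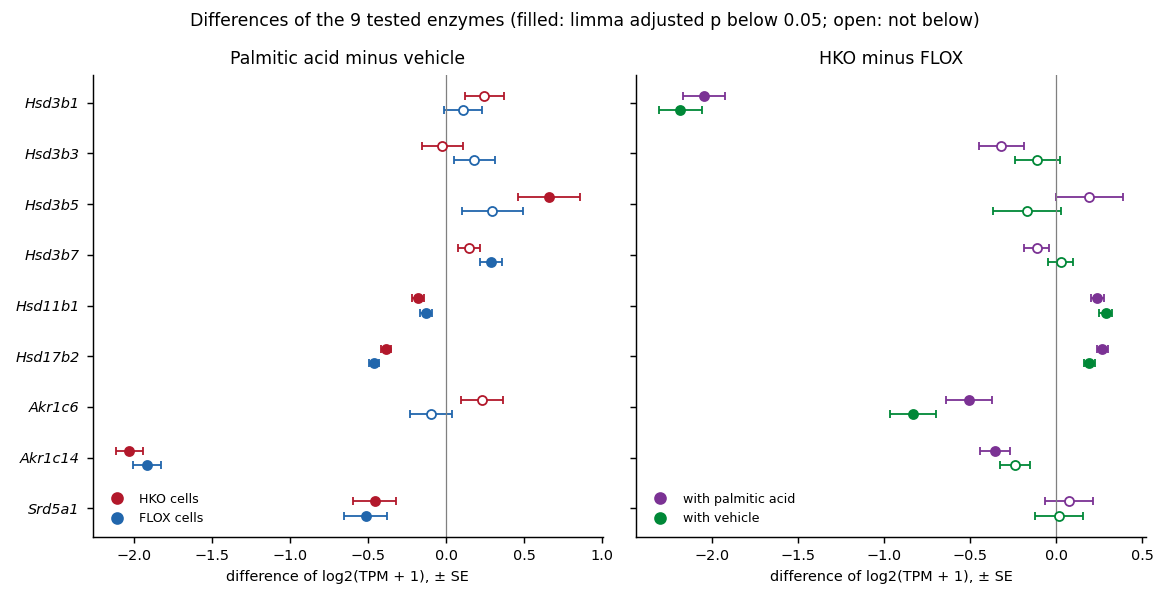
Differences of log2(TPM + 1) ± SE for the 9 tested enzymes, palmitic acid minus vehicle on the left (HKO red, FLOX blue) and HKO minus FLOX on the right (palmitic acid purple, vehicle green), with filled points for adjusted p below 0.05. Akr1c14 lies at -2.03 and -1.92 on the left and Hsd3b1 at -2.05 and -2.18 on the right, while the other called values lie between -0.83 and 0.66.

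Counted over the 9 tested members, palmitic acid in HKO cells left 1 higher (Hsd3b5) and 4 lower (Hsd11b1, Hsd17b2, Akr1c14, Srd5a1), where 29.4% of all tested genes were called higher and 13.1% lower (42.5% either way). In FLOX cells it left 1 higher (Hsd3b7) and the same 4 lower, against 23.0% and 11.5% of all genes (34.4% either way). Between genotypes with palmitic acid 2 were higher in HKO (Hsd11b1, Hsd17b2) and 3 lower (Hsd3b1, Akr1c6, Akr1c14), against 4.24% and 5.50% of all genes (9.74% either way). With vehicle 2 were higher (Hsd11b1, Hsd17b2) and 2 lower (Hsd3b1, Akr1c6), against 4.11% and 7.56% (11.7% either way). Of the 10 members 4 did not overlap between treatments in HKO cells, 5 in FLOX cells, 5 between genotypes with palmitic acid and 5 with vehicle, where 41.1%, 29.0%, 13.9% and 17.8% of tested genes did not. No member was called in the interaction, the HKO response minus the FLOX response, by limma, the only tool run. Over all genes 0.194% were called there (0.152% higher and 0.0422% lower). In the interaction 0 of 9 members reached an unadjusted p below 0.05, a threshold for which the share of all genes was not computed. Nothing is read from these counts, since the members were chosen with these contrasts known. Among the members the median log2 difference was -0.026 with palmitic acid in HKO and -0.096 in FLOX cells, against 0.11 and 0.096 over all tested genes. It was -0.11 between genotypes with either treatment, against -0.0077 with palmitic acid and -0.023 with vehicle over all genes. Median-ratio scaling brought the all-gene median with palmitic acid to 0.0050 in HKO and 0.0053 in FLOX cells. It changed the calls over all genes to 2086 higher and 2363 lower in HKO (3491 and 1549 unscaled) and to 1624 and 1997 in FLOX cells (2726 and 1358 unscaled), while the counts of members in each direction stayed at 1 and 4.

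The remaining steroid genes were taken from 4 lists written by function with the members left out: other dehydrogenases and reductases, hydroxylases, conjugation enzymes, and receptors, carriers and redox partners. Of their 73 genes 69 were in the table under these symbols and 42 were tested. Palmitic acid lowered 28 and raised 4 of them in HKO cells (median log2 difference -0.27), and lowered 24 and raised 4 in FLOX cells (median -0.22). Between genotypes 4 were higher in HKO and 9 lower with palmitic acid (median -0.079), and 6 higher and 7 lower with vehicle (median -0.031), or 8 and 6 with quantile normalization. Without both FLOX libraries numbered 1 the counts with palmitic acid in FLOX cells were 20 lower and 5 higher. The shares of all genes called and their medians, given above, are the background of these counts. The 10 hepatocyte markers were lower with palmitic acid as well (median log2 difference -0.28 in HKO and -0.34 in FLOX cells). Their part in the falls of the steroid genes was not tested.

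Of the other dehydrogenases and reductases, 10 of 17 fell and 2 rose with palmitic acid in HKO cells, and 9 fell and 2 rose in FLOX cells. The rises were those of Dhrs9 and of Hsd17b4, a peroxisomal enzyme of fatty acid oxidation, whose value in HKO cells (0.16 ± 0.049, limma adjusted p = 0.0141) dropped to 0.041 and lost its call with median-ratio scaling. The falls were led by Srd5a2, the second 5α-reductase, with 1.34 ± 0.839 TPM in palmitic acid against 4.86 ± 0.506 TPM in vehicle in HKO cells (-1.39 ± 0.20, limma adjusted p = 4.10e-05) and 2.01 ± 0.448 against 5.56 ± 0.768 TPM in FLOX cells (-1.13 ± 0.20, 3.90e-04). Srd5a2 therefore changed in the same direction as Srd5a1 in both genotypes. Akr1c19, a relative of Akr1c14 in the cluster on chromosome 13, fell by 1.04 ± 0.17 in HKO (limma adjusted p = 1.83e-04) and by 0.85 ± 0.17 in FLOX cells (0.00140). Nsdhl, a sterol dehydrogenase of cholesterol synthesis, had 66.3 ± 4.29 TPM with palmitic acid against 105.5 ± 1.92 TPM with vehicle in FLOX cells (-0.67 ± 0.067, limma adjusted p = 1.65e-06). Dhrs9, a short-chain dehydrogenase of retinol and 3α-hydroxysteroids, went the other way, with 21.8 ± 0.882 against 8.05 ± 0.638 TPM in HKO cells (1.33 ± 0.12, limma adjusted p = 2.75e-07) and 13.4 ± 2.93 against 4.77 ± 0.292 TPM in FLOX cells (1.298 ± 0.12, 5.22e-07).

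Between genotypes, Hsd17b6, which oxidises 3α-androstanediol, was low in HKO cells: 14.8 ± 1.80 against 28.1 ± 1.57 TPM in FLOX cells with palmitic acid (-0.89 ± 0.073, limma adjusted p = 6.58e-07) and 21.8 ± 1.15 against 44.8 ± 1.29 TPM with vehicle (-1.01 ± 0.073, 1.66e-07). Hsd17b11, a lipid droplet dehydrogenase, was lower in HKO, with differences of -0.46 ± 0.047 with palmitic acid and -0.33 ± 0.047 with vehicle (limma adjusted p = 7.12e-06 and 2.57e-04). Its relative Hsd17b13, also of lipid droplets, was higher, with 185 ± 6.20 against 127 ± 10.02 TPM with palmitic acid (0.54 ± 0.050, 2.40e-06) and 250.2 ± 8.55 against 170.0 ± 6.07 TPM with vehicle (0.56 ± 0.050, 1.83e-06). Dhrs9 was higher in HKO cells too (0.68 ± 0.12 and 0.65 ± 0.12, limma adjusted p = 0.00116 and 0.00176). In all, 2 genes of the list were higher in HKO and 3 lower with palmitic acid, and 2 higher and 2 lower with vehicle.

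All 5 tested hydroxylases fell with palmitic acid in HKO cells and 4 of them fell in FLOX cells. Cyp39a1, an oxysterol 7α-hydroxylase, had 5.84 ± 0.268 TPM with palmitic acid against 13.5 ± 0.173 TPM with vehicle in HKO cells (-1.09 ± 0.057, limma adjusted p = 8.54e-10) and 4.57 ± 0.131 against 11.3 ± 0.812 TPM in FLOX cells (-1.14 ± 0.057, 7.17e-10). Cyp21a1, the steroid 21-hydroxylase, fell by 0.81 ± 0.051 in HKO and by 0.64 ± 0.051 in FLOX cells (limma adjusted p = 5.88e-09 and 1.08e-07). Cyp7b1, the oxysterol hydroxylase of male mouse liver, fell by 0.40 ± 0.063 in FLOX cells (1.37e-04). With vehicle 3 hydroxylases were higher in HKO cells, led by Cyp17a1, the 17α-hydroxylase, at 7.69 ± 2.67 against 2.74 ± 1.22 TPM (1.22 ± 0.30, limma adjusted p = 0.0154), a call lost without HKO vehicle replicate 3 (1.03) and with a pseudocount of 0.1 (1.49). With palmitic acid 1 was higher, Cyp39a1 (0.30 ± 0.057, 0.00320).

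Conjugation genes fell for 9 of 11 in HKO and 8 of 11 in FLOX cells with palmitic acid. Sult1a1, a phenol sulfotransferase, had 148 ± 9.47 TPM with palmitic acid against 346 ± 15.2 TPM with vehicle in HKO cells (-1.22 ± 0.078, limma adjusted p = 7.60e-09) and 163 ± 24.9 against 351 ± 7.68 TPM in FLOX cells (-1.11 ± 0.078, 2.88e-08). Ugt2b36, a glucuronosyltransferase, fell by 1.07 ± 0.043 in HKO and by 0.95 ± 0.043 in FLOX cells (4.43e-11 and 2.42e-10). Sult1e1, the estrogen sulfotransferase, was the single conjugation gene that rose, to 11.7 ± 1.22 TPM with palmitic acid against 4.96 ± 0.327 TPM with vehicle in HKO cells (1.09 ± 0.073, limma adjusted p = 1.49e-08), and to 20.7 ± 0.965 against 5.29 ± 0.327 TPM in FLOX cells (1.79 ± 0.073, 9.06e-11). Its rise was smaller in HKO cells, with a difference of the responses of -0.70 ± 0.10 (limma adjusted p = 0.0122, and 0.111 with the replicate numbers as a block). It was the only one of the 42 genes called in the interaction. Between genotypes Ugt2b1 was lower in HKO (-0.62 ± 0.065 with palmitic acid and -0.61 ± 0.065 with vehicle, limma adjusted p = 8.47e-06 and 1.14e-05). Ugt2b38, a related enzyme of the same family, was higher (0.48 ± 0.10 and 0.53 ± 0.10, 0.00704 and 0.00312), and reads may be split among such relatives. In all, 1 conjugation gene was higher and 4 were lower in HKO with palmitic acid, and 1 and 3 with vehicle.

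Among receptors, carriers and redox partners, 4 of 9 fell and 1 rose with palmitic acid in HKO cells, and 3 fell and 1 rose in FLOX cells. Under the replicate block 2 fell in HKO and 1 in FLOX cells. Of the falls in FLOX cells, those of the chaperone Fkbp4 (-0.15 ± 0.047) and of Pgrmc1 (-0.12 ± 0.037) were lost without FLOX vehicle replicate 1 (-0.13 and -0.099). Fkbp4 was also lost without FLOX vehicle replicate 4 or FLOX palmitic acid replicate 2 or 3 (each -0.14). Pgrmc1 was also lost with quantile normalization (-0.11) and with no variance trend or only the groups compared (-0.12). Without both FLOX libraries numbered 1 it was lost too (-0.055). In HKO cells those of Fkbp4 (-0.14 ± 0.047) and of Serpina6, the plasma carrier of glucocorticoids (-0.24 ± 0.076), were lost without HKO vehicle replicate 2 (-0.13 and -0.20). Por, the reductase that feeds electrons to microsomal P450 enzymes, rose to 151 ± 11 TPM with palmitic acid against 97.7 ± 3.13 TPM with vehicle in HKO cells (0.62 ± 0.052, limma adjusted p = 1.74e-07) and to 176 ± 11.1 against 113 ± 3.13 TPM in FLOX cells (0.63 ± 0.052, 2.07e-07). Cyb5b, a cytochrome b5 of the mitochondrial outer membrane, fell by 0.30 ± 0.061 in HKO and by 0.27 ± 0.061 in FLOX cells (0.00102 and 0.00297). Between genotypes 2 of the 9 were lower in HKO with either treatment and none higher, among them Por (-0.22 ± 0.052 with palmitic acid and -0.21 ± 0.052 with vehicle, limma adjusted p = 0.0121 and 0.0146). Its call with palmitic acid was lost when only the groups compared were fitted, and that with vehicle under quantile normalization (-0.15). The second gene was Serpina6 (-0.38 ± 0.076 with palmitic acid and -0.26 ± 0.076 with vehicle, limma adjusted p = 0.00389 and 0.0355), whose call with vehicle was lost with median-ratio scaling (-0.24), quantile normalization (-0.23), no filter or only the groups compared (-0.26), and when FLOX vehicle replicate 1, 2 or 3 or HKO vehicle replicate 1, 3 or 4 was left out (-0.22 to -0.28).

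**Figure D3:**
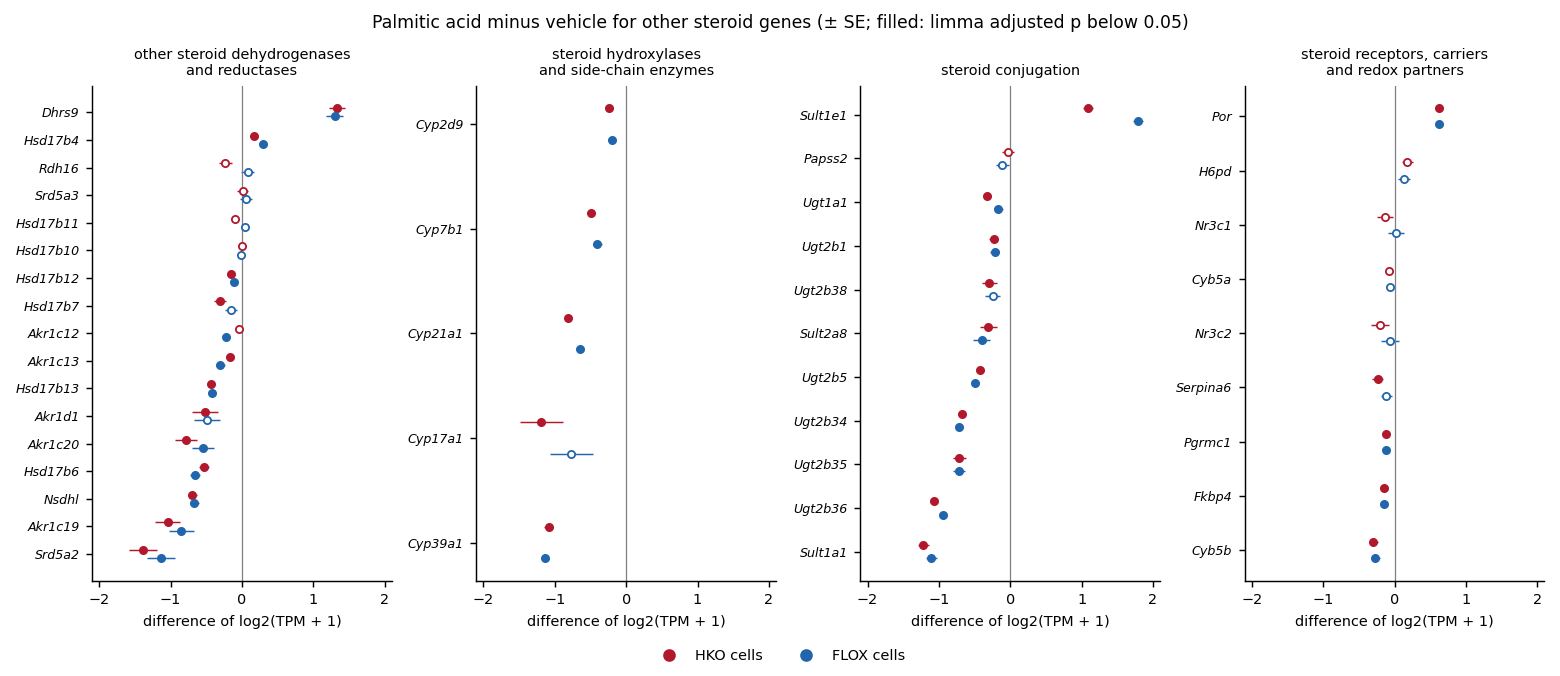
Palmitic acid minus vehicle, as differences of log2(TPM + 1) ± SE, for the tested genes of the 4 steroid lists outside the members, with HKO in red, FLOX in blue and filled points for adjusted p below 0.05. Most points lie left of 0 in both genotypes, and Dhrs9, Sult1e1 and Por lie furthest to the right.

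Genes that glucocorticoids regulate were listed because Hsd11b1 helps to set the level of active hormone in hepatocytes. With palmitic acid 3 of 13 rose and 5 fell in HKO cells (median -0.090), and 1 rose and 6 fell in FLOX cells (median -0.17). Over all tested genes 29.4% rose and 13.1% fell in HKO, and 23.0% rose and 11.5% fell in FLOX cells. Fkbp5, a chaperone induced by glucocorticoids, fell by 0.65 ± 0.069 in HKO and by 0.49 ± 0.069 in FLOX cells (limma adjusted p = 1.98e-06 and 5.09e-05). Tsc22d3 (GILZ), another induced gene, fell by 0.48 ± 0.065 and 0.56 ± 0.065 (2.65e-05 and 8.46e-06), while the phosphatase Dusp1 rose by 0.41 ± 0.050 and 0.19 ± 0.050 (8.34e-06 and 0.00711, the FLOX call being lost with median-ratio scaling at 0.090). Between genotypes 3 were higher in HKO and 0 lower with palmitic acid (median 0.020), where 6 of 13 had an unadjusted p below 0.05, and 2 were higher and 1 lower with vehicle (median 0.0093). With palmitic acid the count was 0 when only the groups compared were fitted and 5 with median-ratio scaling, and with vehicle it was 1 without FLOX vehicle replicate 3. Over all tested genes 4.24% were higher in HKO and 5.50% lower with palmitic acid, and 4.11% and 7.56% with vehicle. None of the 13 was called in the interaction, where 0.194% of all tested genes were called. There 2 of the 13 had an unadjusted limma p below 0.05. The share of all genes at an unadjusted p was not computed, so neither this count nor the 6 of 13 above has a background.

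Several steroid enzymes differ between male and female mouse liver, Hsd3b5 among them, so genes of known sex bias were listed too. The Y-linked Eif2s3y averaged 39.2 to 39.9 TPM in the 4 groups and Xist, which silences one X chromosome in females, stayed at or below 0.01 TPM in every sample. None of the 4 tested sex chromosome genes was called by limma in the 5 comparisons, and 0 had an unadjusted p below 0.05. Of the male-biased genes 9 of 16 fell with palmitic acid in HKO cells and 7 in FLOX cells, with none higher (11 called in FLOX cells with median-ratio scaling). Over all tested genes 29.4% rose and 13.1% fell in HKO, and 23.0% rose and 11.5% fell in FLOX cells. Between genotypes 6 were higher in HKO and 3 lower with palmitic acid, and 5 and 3 with vehicle. Over all tested genes 4.24% were higher and 5.50% lower with palmitic acid, and 4.11% and 7.56% with vehicle. These shares are also the background of the female-biased counts below. Moxd1, a monooxygenase-like protein, stood at 5.78 ± 0.614 TPM in HKO against 0.450 ± 0.425 TPM in FLOX cells with palmitic acid and at 6.24 ± 0.450 against 0.360 ± 0.0497 TPM with vehicle, and passed the filter through the HKO samples, so that this is a description. Selenbp2 was higher in HKO (0.41 ± 0.045 with palmitic acid and 0.54 ± 0.045 with vehicle, limma adjusted p = 1.20e-05 and 6.31e-07). Cyp4a12b, a fatty acid hydroxylase, was lower (-0.49 ± 0.078 and -0.40 ± 0.078, 6.78e-04 and 0.00313). Only 3 of 21 female-biased genes were tested (Cyp17a1, Cyp39a1 and Trim24). Of these 1 rose and 2 fell with palmitic acid in HKO cells, and 1 rose and 1 fell in FLOX cells, while 1 was higher and 1 lower in HKO with palmitic acid, and 2 and 1 with vehicle. The rise in FLOX cells was that of Trim24 (0.18 ± 0.060). It was lost with median-ratio scaling (0.088), with quantile normalization (0.080), under the replicate block, with only the groups compared, and without FLOX vehicle replicate 2, 3 or 4 or FLOX palmitic acid replicate 2 or 4 (0.16 to 0.18). The Trim24 call between genotypes with palmitic acid (-0.23 ± 0.060) was lost under the replicate block, with only the groups compared, and without FLOX palmitic acid replicate 2 or 4 or HKO palmitic acid replicate 3 (-0.21 to -0.23). The lists overlap, since Cyp7b1, Cyp2d9, Ugt2b1 and Ugt2b38 are in the male-biased list and Cyp17a1 and Cyp39a1 in the female-biased list as well.

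The lower level of Hsd3b1 in HKO cells was not shared by its whole chromosomal surroundings. The neighbours, taken as the tested protein-coding genes nearest to it in GENCODE M21 order, were chosen after values were seen. Of the 8, only Gm10681 was called, with 0.730 TPM in HKO against 1.94 TPM in FLOX cells with palmitic acid (-0.76 ± 0.13) and 0.0575 against 0.540 TPM with vehicle (-0.53 ± 0.13). It passed the filter only through the FLOX samples with palmitic acid, so that its difference with palmitic acid is a description, and both vehicle groups lay below 1 TPM. Zfp697, Wars2, Wdr3, Gdap2 and Man1a2 were not called (limma adjusted p of 0.220 to 0.848 with palmitic acid and 0.256 to 0.909 with vehicle). Among family members below the filter, Hsd3b4 averaged 0.565 ± 0.257 TPM in HKO against 1.08 ± 0.339 TPM in FLOX cells with palmitic acid, and 0.0575 ± 0.0386 against 0.435 ± 0.108 TPM with vehicle. Hsd3b6 stayed at or below 0.52 TPM.

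**Figure D4:**
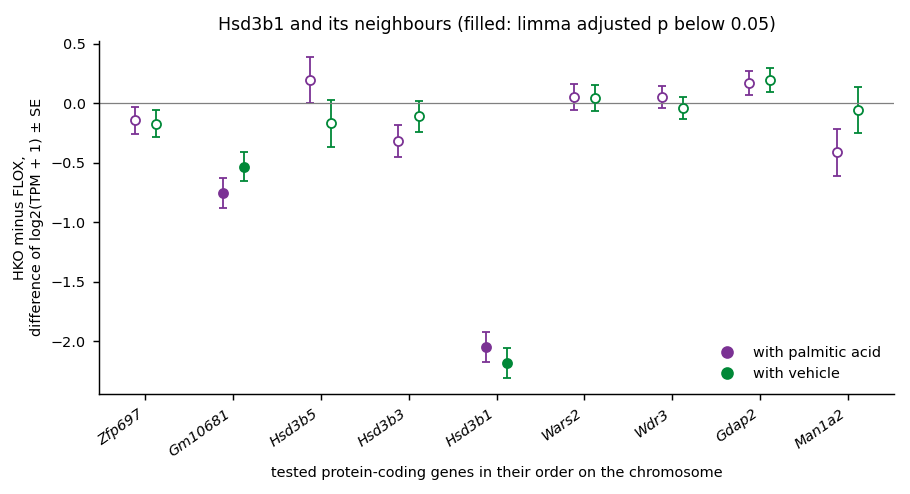
HKO minus FLOX, as differences of log2(TPM + 1) ± SE, for Hsd3b1 and the tested protein-coding genes on either side of it in chromosomal order, with palmitic acid in purple, vehicle in green and filled points for adjusted p below 0.05. Hsd3b1 lies at -2.05 and -2.18, Gm10681 at -0.76 and -0.53, and the rest between -0.42 and 0.20 unfilled.

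Hsd17b2 is on chromosome 8, as is Smpd3, and had a called neighbour as well. Sdr42e1, next to it, had 26.3 TPM in HKO against 16.9 TPM in FLOX cells with palmitic acid (0.62 ± 0.12, limma adjusted p = 0.00241) and 37.1 against 24.9 TPM with vehicle (0.56 ± 0.12, 0.00525), the same direction as Hsd17b2. Osgin1 was higher in HKO with palmitic acid (0.24 ± 0.053, limma adjusted p = 0.00785) and not called with vehicle (0.293). The neighbours Bco1, Cmip, Mphosph6, Hsbp1 and Mlycd, were not called. In the Akr1c cluster, Akr1c12 and Akr1c13 were more abundant than Akr1c6, at 26.8 ± 1.41 and 25.7 ± 1.67 TPM in HKO cells with palmitic acid and 25.3 ± 1.70 and 26.1 ± 1.83 TPM in FLOX cells with palmitic acid. Akr1c18 and Akr1c21 stayed at or below 0.70 TPM.

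The genes whose pattern was most like that of a member were ranked by Pearson's r of log2(TPM + 1) over the 16 samples, for the 3 members with the widest range of group means. The samples share their libraries and fall into 4 groups, so r mostly follows the group means and is a description. Nearest to Hsd3b1 were Rgn (regucalcin, r = 0.988), Smpd3 (0.979) and Gm4779 (0.979). Rgn had 28.8 ± 0.912 TPM in HKO against 54.8 ± 3.03 TPM in FLOX cells with palmitic acid and 25.1 ± 0.658 against 54.5 ± 0.652 TPM with vehicle. Nearest to Akr1c14 were Aass, the first enzyme of lysine breakdown (0.995), Baat, which conjugates bile acids to taurine and glycine (0.993), and Cyp2c70, which makes muricholic acids in mice (0.992). Cyp2c70 had 345 ± 6.21 TPM with palmitic acid against 802 ± 21.9 TPM with vehicle in HKO cells, and 430.4 ± 11.4 against 911 ± 10.3 TPM in FLOX cells. Nearest to Akr1c6 were Cyp2e1, which oxidises ethanol (0.905), Farsb, a subunit of phenylalanyl-tRNA synthetase (0.902), and Med29, a Mediator subunit (0.898). Cyp2e1 had 76.9 ± 7.0 TPM in HKO against 159 ± 13.3 TPM in FLOX cells with palmitic acid and 58.8 ± 2.47 against 155 ± 2.42 TPM with vehicle.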

How the data were processed

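Stranded total RNA libraries of 16 primary hepatocyte samples were sequenced, 4 per group. The deposited values were TPM with 2 decimals for 55416 mouse gene IDs, made by the authors with RSEM 1.3.3 per the submitters' processing notes. The genome build named there (GRCh38.p13) is human while the IDs are those of mouse genes, and measured genes are therefore printed without coordinates. The aligner is not given in the sources used here. Depth is unknown. Symbols matched 52083 IDs and 11803 of the 11858 genes tested.

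From the deposited TPM, log2(TPM + 1) was computed and fitted with limma 3.58.1 in R 4.3.3, with group means as coefficients and a trended prior variance. Tests were two-sided, over 5 comparisons, with a threshold of adjusted p 0.05. The p-values measure the spread between samples, which may be technical. The members and lists were chosen with earlier results of these data known. Named genes were the members, Smpd3, up to 3 genes per list, direction and comparison with the largest called differences (of which the text gives part), and the 3 genes most like each of 3 members. Stretches of 50 bases were compared among GENCODE M21 transcripts. Alternatives changed the pseudocount (0.1), the filter (absent, or 5 TPM), the scaling (median-ratio, or quantile normalization), the variance trend (absent), the samples fitted (only the groups compared, or each sample left out in turn) and the design (replicate block), or summed the Hsd3b genes, and, chosen after seeing the data, leaving out both FLOX libraries numbered 1 was tried. The fit was tested on simulated data.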

Additional observations from a re-analysis of the deposited data

Results flagged for a closer look

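In 13 of 148 sets of 1 gene and 1 group (8.78%), 1 sample lay far from the other 3, where chance gives about 1 in 20. Among the members these were the lowest Akr1c14 sample in HKO cells with palmitic acid (6.59 TPM, next 8.92 TPM) and the highest Hsd3b7 sample in FLOX cells with vehicle (71.8 TPM, next 59.8 TPM). Among dehydrogenases and reductases outside the members they were the lowest Nsdhl sample in HKO cells with palmitic acid (57.3 TPM, next 72.5 TPM), the lowest Srd5a2 (4.11 TPM, next 5.03 TPM) and Rdh16 (0.63 TPM, next 0.75 TPM) and the highest Hsd17b13 sample (263 TPM, next 247 TPM) in HKO cells with vehicle, the highest Akr1c20 sample in FLOX cells with palmitic acid (2.20 TPM, next 1.83 TPM), and the lowest Akr1c19 sample in FLOX cells with vehicle (4.86 TPM, next 5.77 TPM). Of the other genes, HKO cells with palmitic acid held the highest Cyp39a1 (6.24 TPM, next 5.74 TPM) and the lowest Papss2 (29.2 TPM, next 34.8 TPM) and Fkbp4 samples (96.2 TPM, next 109 TPM). Pgrmc1, a membrane heme protein once named as a progesterone receptor component, had its lowest sample in FLOX cells with palmitic acid (447 TPM, next 501 TPM) and its highest in FLOX cells with vehicle (551 TPM, next 525 TPM), both in libraries numbered 1.

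The response of Sult1e1 to palmitic acid differed between genotypes, with a difference of -0.70 ± 0.10 on the log2 scale (limma adjusted p = 0.0122). All alternatives run gave the same sign, which changes of filter, variance trend and design could not alter. The call was lost under the replicate block (limma adjusted p = 0.111).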

How the results depend on the processing

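Of the 45 member differences 19 were called, and in 465 of their 477 alternatives they stayed past the threshold with 0 changes of sign. Changing the filter, the variance trend or the design, or leaving out samples outside the groups compared, moves only the SE and the p-value. The sign could not change in those alternatives. The calls lost beside those named with the results were Akr1c14 between genotypes with palmitic acid and Hsd11b1 with palmitic acid in FLOX cells when only the groups compared were fitted (-0.35 and -0.13), Akr1c6 between genotypes with palmitic acid with no filter (-0.50), and Hsd3b5 with palmitic acid in HKO cells when the Hsd3b genes were summed (0.19). The last value is that of the sum, which in HKO cells is mostly Hsd3b3 (7.0 of 9.76 TPM with palmitic acid), and not of Hsd3b5 itself. The cause of the other losses was not tested. Hsd3b1 with palmitic acid in HKO cells passed the threshold at 0.34 when either replicate 3 with vehicle or replicate 4 with palmitic acid was left out. With 1 sample left out, the members called were 4 to 5 with palmitic acid in FLOX, 5 to 6 in HKO, 3 to 5 between genotypes with palmitic acid and 4 to 5 with vehicle. The count of 3 came without FLOX palmitic acid replicate 3. The other steroid genes called were 25 to 29, 27 to 32, 12 to 15 and 11 to 15, with 1 in the interaction throughout. Same-numbered samples did not deviate together (r of -0.15 to 0.086 between treatments and -0.11 to 0.11 between genotypes), and were not treated as pairs, although the labels do not say whether they share a mouse or culture. Under the replicate block the member counts were 5, 5, 5 and 4, and the interaction call of Sult1e1 was lost, which left 0 of the other steroid genes there. Of 2643 alternatives of named genes outside the members, 89 took a call below the threshold and 0 reversed one, with the same limit on changes of sign. Depth is unknown, so values near 1 TPM (Hsd3b1 in HKO cells, Hsd3b2, Hsd3b5) carry no counting interval.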
